A study of Mus musculus with 36 samples.

Results

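The genes described here build triglyceride from glycerol 3-phosphate or monoacylglycerol and fatty acyl-CoA. They are Gpd1, Gpam, Agpat2, Lpin1, Lpin2, Mogat1, Mogat2, Dgat1 and Dgat2, and they were taken as every probe set whose platform gene symbol was exactly one of these names. This gave 19 probe sets for the 9 genes, out of 45037 probe sets and 18193 gene symbols. The arrays held RNA of the liver, of white fat (WAT) and of brown fat (BAT) of 12 mice, all males of the outbred ddY stock that arrived at 5 weeks of age and were kept for 1 week before dosing. There were 7 mice given water (DW, mice 1 to 7) and 5 mice given CAAM, an amino acid mixture modelled on casein hydrolysate (mice 2, 4, 5, 6 and 7), and each mouse had an array of all 3 tissues. Both groups were fed freely and dosed by feeding tube once a day, 5 times, at 37.5 microliters per g of body weight, with CAAM as a 1.8% solution. Food was taken away on the morning of the last dose and tissues were collected 4 h after it, so every mouse, controls included, had gone without food for a short time. According to the methods, the CAAM group lost 2 mice whose livers looked abnormal, and no such exclusion is named for DW mice. Whether this selection bears on the liver values was not tested.

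In the glycerol phosphate pathway, Gpd1 makes glycerol 3-phosphate, Gpam adds the first acyl chain, Agpat2 adds the next to give phosphatidate, and the lipins Lpin1 and Lpin2 remove the phosphate to give diacylglycerol. Mogat1 and Mogat2 reach diacylglycerol from monoacylglycerol, a route best known from the intestine, and Dgat1 and Dgat2 add the last acyl chain. Gpd1 is a dehydrogenase and the lipins are phosphatases, so these 3 genes are not acyltransferases. In fat the pathway fills the lipid droplet, and in liver it also feeds lipoprotein secretion. Differences in this report are of RNA on the arrays, and in whole tissue fewer cells of a type and less RNA per cell cannot be told apart.

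The deposited values are scores of the distribution free weighted (DFW) method, 1 per probe set and array. Their level lies on a scale like log2, but the deviations between arrays of a tissue were shrunk by a weight of the probe set, so a difference between DW and CAAM is not a log2 fold change. For treatment, deviations are therefore given in units of the pooled SD of the probe set within groups (SD units). The median pooled SD over all probe sets was only 1.07e-05 in liver, 1.43e-05 in WAT and 7.31e-06 in BAT. Array medians were 6.80700 to 6.80735 in liver, 6.913 to 6.919 in WAT and 6.780 to 6.782 in BAT. Values of a tissue resemble each other so closely that the tissues appear to have been quantified apart, and levels set across tissues carry that limit. Of the hepatocyte markers, Alb stood at 15.00 in liver against 6.98 in WAT and 6.54 in BAT. Adipoq, an adipocyte hormone, stood at 6.07, 14.51 and 14.00, and Ucp1, the brown fat uncoupling protein, at 6.27, 6.44 and 14.17, in the same order. In WAT the mean score of 5 epididymis markers was 11.44 and 10.34 in DW mice 1 and 2 and 11.15 in CAAM mouse 6, against 6.38 to 7.72 in the other 9 mice. In BAT the mean score of 6 skeletal muscle markers was 11.34, 10.35 and 8.83 in DW mice 1, 3 and 7 and 10.78 in CAAM mouse 2, against 6.62 to 7.34 in the other 8.

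The genes of triglyceride synthesis were set at different levels in the 3 tissues of the DW mice, and most were higher in fat than in liver. Gpd1, Gpam, Agpat2, Lpin1, Dgat1 and Dgat2 stood in the order BAT over WAT over liver on their leading probe sets, Lpin2 stood in the reverse order, Mogat1 was highest in WAT and Mogat2 lowest there. The test was limma applied to the tissue differences of each mouse, fitted over all probe sets. Since 99.8% of all probe sets differed between WAT and liver, 99.9% between BAT and liver and 99.7% between BAT and WAT at a Benjamini-Hochberg adjusted p under 0.05, the adjusted p carries little here. A difference of at least 1 score unit was counted as well. In WAT against liver, 6 of the 19 probe sets were higher by that rule, against 8.34% of all probe sets, and 3 were lower, against 3.96%. In BAT against liver, 10 were higher, against 4.59%, and 4 were lower, against 5.02%. In BAT against WAT, 3 were higher, against 1.77%, and 1 was lower, against 4.9%. The 14 probe sets past 1 unit between BAT and liver came from 7 genes.

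**Figure D1:**
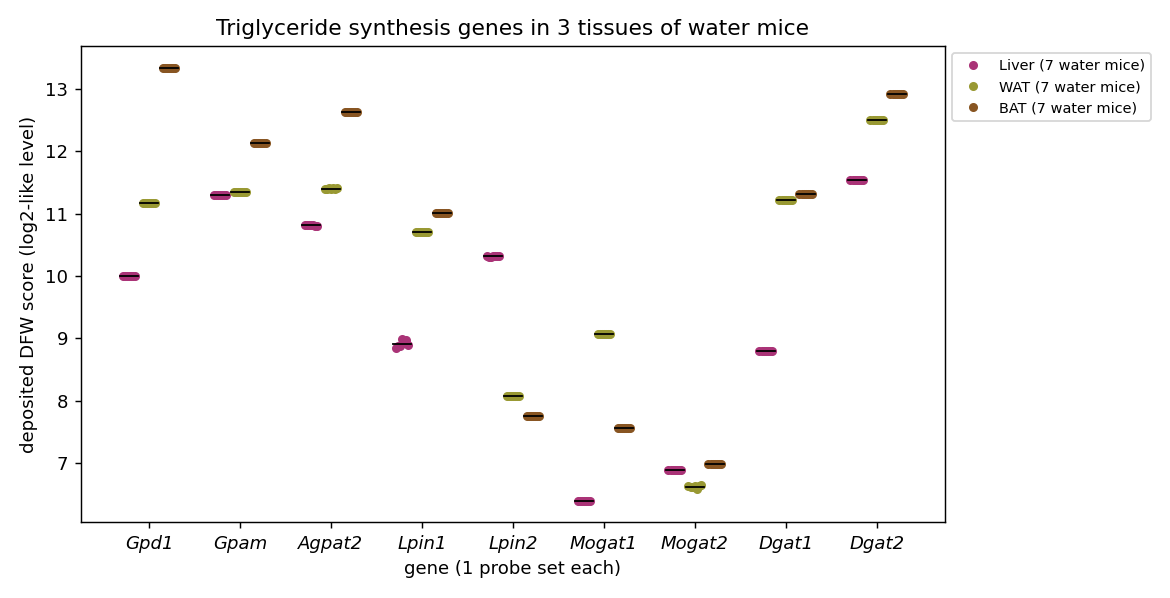
Deposited DFW scores (log2-like, y axis) of the 9 genes in liver, WAT and BAT of the 7 DW mice, with 1 probe set per gene. Points are mice and black lines are means. Gpd1 rises from 10.00 in liver to 13.34 in BAT, Lpin2 falls from 10.31 to 7.76, and Mogat1 is highest in WAT at 9.07.

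Within a tissue the DW mice lay close together on this scale. Of 27 gene and tissue combinations, 25 spanned at most 0.0102 score units between the lowest and the highest DW mouse. The exceptions were Lpin1 in liver, which spanned 8.84 to 8.99 with a median of 8.90, and Mogat2 in WAT, which spanned 6.59 to 6.65 with a median of 6.63. The groups of a tissue pair did not overlap for any of the 9 genes, and each order given below is larger than the spread between mice. The shrinkage of that spread by the DFW weights makes this an easy bar to pass. The share of all probe sets without such overlap was not counted, but 99.7% to 99.9% of them differed at a limma adjusted p under 0.05. The lack of overlap thus cannot be read as a trait of these genes.

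Gpd1, which makes glycerol 3-phosphate from dihydroxyacetone phosphate, had the largest difference of the 9 genes between any 2 tissues. Its leading probe set (the one with the highest mean) was at 10.00 in liver, 11.17 in WAT and 13.34 in BAT (means, n = 7 DW mice). The difference of BAT from liver was 3.34 ± 4.02e-05 score units (SE, n = 7; limma adjusted p = 1.48e-30), larger than that of 98.6% of all probe sets. The SE and p of this and the other tissue differences reflect only the shrunken spread between mice. They leave out any offset between tissues that were quantified apart. BAT exceeded WAT by 2.17 ± 0.000719 (limma adjusted p = 2.89e-21), more than 99.2% of probe sets. The 4 Gpd1 probe sets did not give the same picture. In WAT against liver the leading probe set was higher by 1.17, whereas another was lower, at -0.40. In BAT against liver all 4 were higher, by 0.21 to 3.34.

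Gpam, the mitochondrial enzyme that commits glycerol 3-phosphate to lipid, was nearly level between liver and WAT and higher in BAT. Its leading probe set was at 11.29 in liver, 11.35 in WAT and 12.12 in BAT, and BAT exceeded liver by 0.83 ± 6.28e-05 (limma adjusted p = 9.11e-26). WAT exceeded liver by 0.05, and this small difference became -0.056 when each array was centred on its median. The other probe set of Gpam was lower in WAT and BAT than in liver, by -0.31 and -0.17, so the direction for this gene against liver depends on the probe set.

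Agpat2, whose loss causes a generalised lipodystrophy, had a single probe set and followed the same order as Gpd1. It was at 10.81 in liver, 11.40 in WAT and 12.62 in BAT. BAT exceeded liver by 1.81 ± 0.000331 (limma adjusted p = 2.71e-23) and WAT by 1.22 ± 0.000557 (limma adjusted p = 2.29e-20).

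The pair of lipins ran in opposite directions. Lpin1, the main phosphatidate phosphatase of adipose tissue, was at 8.91 in liver, 10.71 in WAT and 11.01 in BAT, and Lpin2, known as the form of the liver, was at 10.31, 8.08 and 7.76. For Lpin1, WAT exceeded liver by 1.80 ± 0.0196 and BAT by 2.09 ± 0.0197 (limma adjusted p = 1.98e-11 and 5.45e-12). Its other probe set gave 2.001 and 2.67. For Lpin2, WAT was lower than liver by -2.24 ± 0.00158 and BAT by -2.55 ± 0.00129 (limma adjusted p = 3.42e-19 and 2.19e-20), and the other 3 probe sets were lower in both fats too, by -0.77 to -1.96. From WAT to BAT, Lpin1 differed by 0.30 on its leading probe set and by 0.67 on the other, and Lpin2 by -0.31, which became 0.000142 after quantile normalization over all arrays. Lpin3, the remaining lipin, differed by 0.18 between WAT and liver and by -0.06 between BAT and liver, within 1 unit in every pair of tissues.

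RefSeq (GRCm38.p6) promoter entries were found for 5 of the 9 genes, namely Mogat1, Agpat2, Lpin1, Lpin2 and Gpam. The 250 bases before the start of Lpin1 and of the first Lpin2 entry are shown because these related genes were set in opposite directions between tissues, and those of Mogat1 because that gene differed most between WAT and liver. Capitals mark matches, on either strand, to the E-box CACGTG and the GC box GGGCGG.
Lpin1, chr12:16610967-16611216, minus strand: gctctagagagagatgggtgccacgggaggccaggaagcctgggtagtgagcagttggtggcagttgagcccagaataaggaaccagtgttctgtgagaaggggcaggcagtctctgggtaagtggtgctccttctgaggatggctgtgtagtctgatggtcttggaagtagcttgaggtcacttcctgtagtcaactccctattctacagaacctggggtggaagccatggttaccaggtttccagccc
Lpin2, chr17:71183282-71183531, plus strand: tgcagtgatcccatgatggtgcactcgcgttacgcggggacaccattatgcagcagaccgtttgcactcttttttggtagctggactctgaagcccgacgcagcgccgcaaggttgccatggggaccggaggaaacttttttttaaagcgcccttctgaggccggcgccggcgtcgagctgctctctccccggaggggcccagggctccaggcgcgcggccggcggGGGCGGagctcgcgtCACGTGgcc
Mogat1, chr1:78510810-78511059, plus strand: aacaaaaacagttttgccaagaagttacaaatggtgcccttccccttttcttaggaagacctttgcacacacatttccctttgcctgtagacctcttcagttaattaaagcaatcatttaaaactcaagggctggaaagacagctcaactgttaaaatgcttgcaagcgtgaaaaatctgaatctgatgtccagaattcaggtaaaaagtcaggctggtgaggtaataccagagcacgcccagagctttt
The Lpin2 stretch held 26 CpG dinucleotides and 65.2% G or C, and it contained 1 E-box and 1 GC box that did not overlap. The Lpin1 stretch held 1 CpG and 54.8% G or C, and the Mogat1 stretch held 2 CpG and 41.2%. The median over 32851 promoter entries of the same length was 6 CpG and 52.4%. Of those entries, 6.02% held the E-box and 32.7% the GC box. Neither Lpin1 nor Mogat1 held a match to these motifs, to TATAAA (in 12.4% of entries) or to TGTTTAC (in 3.17%) in this window. Lpin2 has 2 further entries in the same table. Of these, 1 held 50 CpG, 83.2% G or C and a GC box but no E-box, and the other held 3 CpG, 44.8% G or C and a match to TGTTTAC but neither E-box nor GC box. The contrast with Lpin1 thus depends on the entry, and the arrays do not tell which start was used.

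Of the acyltransferases of the monoacylglycerol route, Mogat1 had its highest level in WAT. It was at 6.403 in liver, below the array median on all 12 arrays, at 7.57 in BAT and at 9.07 in WAT. WAT exceeded liver by 2.66 ± 0.000196 (limma adjusted p = 1.76e-25), more than 97.7% of all probe sets, and BAT minus WAT was -1.498 ± 0.000188 (limma adjusted p = 5.98e-24). Mogat2 was near the array median everywhere, at 6.90 in liver, 6.62 in WAT and 6.98 in BAT, and in WAT it was below the array median on all 12 arrays. Its differences between tissues, from -0.27 to 0.36, stayed within 1 unit.

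Both enzymes of the last step were higher in fat. Dgat1 was at 8.79 in liver, 11.21 in WAT and 11.31 in BAT, so WAT exceeded liver by 2.42 ± 0.000198 and BAT by 2.52 ± 6.00e-06 (limma adjusted p = 3.38e-25 and 5.33e-34). This probe set carries the suffix _s_at, which Affymetrix gives to sets that can match several transcripts. The dimmer probe set of Dgat1 also put both fats above liver, by 1.02 and 0.53, but it put BAT below WAT, at -0.49, where the leading one gave 0.10. Dgat2 was at 11.53, 12.49 and 12.91. WAT exceeded liver by 0.96 ± 0.000173 and BAT by 1.38 ± 4.06e-05 (limma adjusted p = 5.13e-23 and 2.59e-28), and the other probe set gave 0.42 and 1.08.

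**Figure D2:**
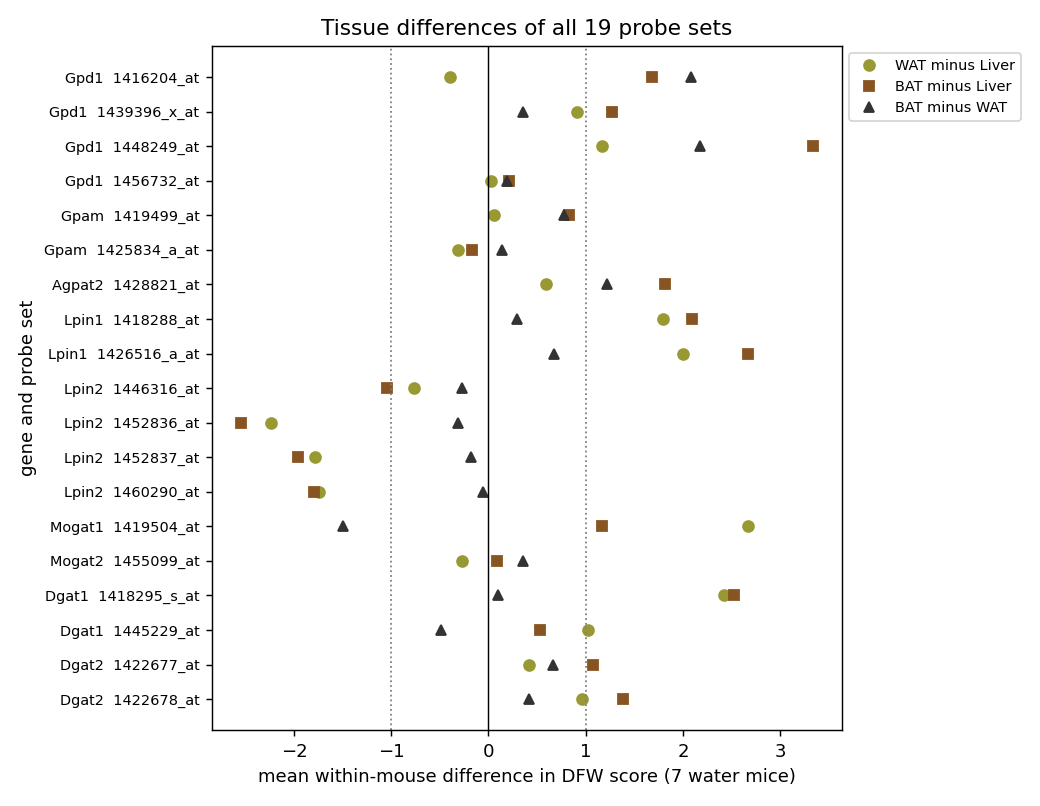
Mean within-mouse differences in DFW score (x axis) between tissues for all 19 probe sets in 7 DW mice, with dotted lines at a difference of 1 in either direction. All 4 Lpin2 probe sets lie left of 0 for both fats against liver and both Lpin1 probe sets lie right of 0, while the 4 Gpd1 probe sets run from -0.40 to 1.17 for WAT against liver.

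The neighbours of the pathway, on lists of 59 genes of which 52 were matched to the platform, gave the tissue levels around the 9 genes. Of 14 paralogues, 2 were higher and 0 lower by 1 unit in WAT against liver (8.34% and 3.96% of all probe sets), and 2 were higher and 3 lower in BAT against liver (4.59% and 5.02%). Gpat3, the glycerol phosphate acyltransferase of the endoplasmic reticulum in fat, was at 9.33 in liver, 11.12 in WAT and 8.33 in BAT. Gpat4, its close relative, was at 9.31, 8.74 and 10.37, so that Gpat3 was higher in WAT than in BAT and Gpat4 was lower. Of the genes that supply glycerol and glycerol 3-phosphate, 3 of 5 were higher in BAT than in liver by 1 unit, against the same 4.59%. Gpd2, the mitochondrial partner of Gpd1 in the glycerol phosphate shuttle, was at 9.34, 9.30 and 13.14, so that like Gpd1 it was highest in BAT, by 3.795 against liver. Pck1, which feeds glyceroneogenesis, was at 11.27, 12.47 and 13.07. The glycerol channel Aqp7 was higher in both fats than in liver, by 2.73 and 3.37, and the channel Aqp9 was lower, by -4.97 and -5.26. In the phospholipid branch, 4 of 15 genes were higher and 3 lower in BAT against liver, beside 4.59% and 5.02% of all probe sets.

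Limma called no change with CAAM for any of the 9 genes in any tissue. Of the 19 probe sets, 0 passed a Benjamini-Hochberg adjusted p under 0.05 in liver, WAT or BAT, and over all 45037 probe sets limma likewise called 0 (0%) in each tissue. At an unadjusted p under 0.05, limma again gave 0 of the 19 in every tissue, against 6.77% of all probe sets in liver, 3.96% in WAT and 6.41% in BAT. In 57 combinations of probe set and tissue, the CAAM and DW mice overlapped in all. The share of all probe sets with such overlap was not counted, so this does not set the 19 apart. Rank products, the test used in the study, called 10 combinations. It called 5 probe sets higher and 2 lower in liver (1 of them in both directions, so 6 in all), against 1.63% and 1.18% of all probe sets. In WAT it called 1 higher, against 0.828%, and 1 lower, against 1.95%. In BAT it called 1 higher, against 1.19%, and 1 lower, against 2.05%. This test ranks raw score differences, so probe sets with a wide spread are ranked first. The 10 called combinations all had an SD larger than that of at least 96.1% of probe sets of their tissue. Values given below for left-out mice or other settings are in limma's moderated SD, which is close to the pooled SD. Where the differences were divided by the SD before ranking, or ranks were summed, rank products called 0 of the 19 in each tissue. Of all 45037 probe sets, division left 280 called in liver, 143 in WAT and 297 in BAT. Summed ranks left 110, 107 and 83. With so few calls, 0 of the 19 says little about these genes.

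**Figure D3:**
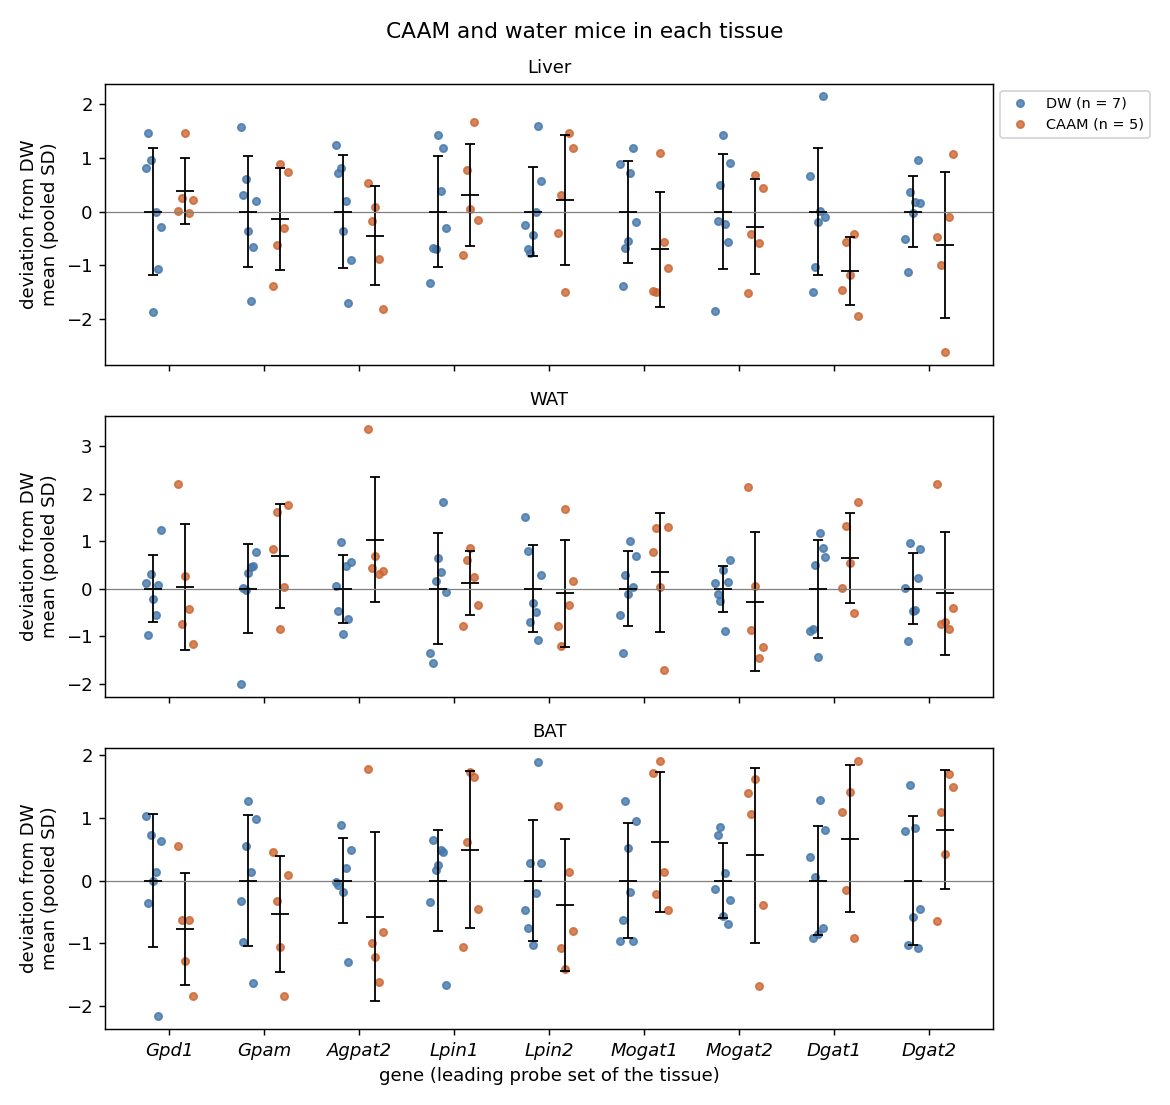
Deviation of each mouse from the DW mean in SD units (y axis) for the 9 genes in liver, WAT and BAT, with DW mice in blue (n = 7), CAAM mice in orange (n = 5) and bars of the mean ± SD. The groups overlap for every gene, and a single CAAM mouse lies at 3.37 for Agpat2 in WAT.

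In liver, the calls fell on the lipins and Agpat2. For Lpin1 the CAAM mice were at -0.81, 0.77, 0.04, 1.66 and -0.16 SD units (mice 2, 4, 5, 6 and 7), and the DW mice ran from -1.33 over a median of -0.30 to 1.44. The highest mouse of the whole set was CAAM mouse 6, and the rest lay within the range of the DW mice. The difference was 0.30 SD units, or 0.016 ± 0.0301 score units (SE; limma adjusted p = 0.959), and rank products called this probe set in both directions, with an estimated share of false positives of 0.000909 for higher and 0.0298 for lower. Without CAAM mouse 6 the Lpin1 difference was -0.043. For Lpin2 the CAAM mice were at -0.41, 0.32, -1.49, 1.47 and 1.18, and the DW mice ran from -0.78 over -0.25 to 1.59. The groups lay over each other, and the difference was 0.21 SD units (limma adjusted p = 0.974). Without CAAM mouse 6 the Lpin2 difference was -0.11 and without CAAM mouse 7 it was -0.028. Rank products called 3 of the 4 Lpin2 probe sets higher. Agpat2, called lower, had CAAM mice at 0.53, -0.18, 0.09, -0.89 and -1.82 and DW mice from -1.70 over 0.19 to 1.24, a difference of -0.45 SD units (limma adjusted p = 0.927). It was -0.13 without CAAM mouse 7 and -0.89 without DW mouse 6, and rank products no longer called it without DW mouse 1, 2 or 3 or CAAM mouse 7.

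The lowest p of the 9 genes in liver belonged to Dgat1. Its CAAM mice were at -1.46, -0.57, -1.18, -0.42 and -1.94 and its DW mice ran from -1.50 over -0.10 to 2.15. All 5 CAAM mice lay below the DW median, yet only 1 lay below the lowest DW mouse. The difference was -1.11 SD units, or -1.54e-05 ± 7.86e-06 score units (SE; limma adjusted p = 0.764), and rank products did not call it. Its other probe set, at 0.38 SD units, did not share the direction. Dgat2, the other enzyme of the last step, had a difference of -0.62 SD units and Mogat1 of -0.70, both with 1 of 5 CAAM mice above the DW median. Gpd1, Gpam and Mogat2 differed by 0.38, -0.14 and -0.28. After each array was centred on its median, 9 of the 19 probe sets had an unadjusted limma p under 0.05, all lower, as did 32715 of all 45037 probe sets, and the 9 had an adjusted p of 0.0659. The median over the 9 genes was -0.28 SD units in liver, against -0.09 over all probe sets. In the same livers the 6 macrophage markers were all higher with CAAM, 4 of them by rank products, against 1.63% of all probe sets. Their mean score was 8.833 to 8.843 in CAAM mice against 8.828 to 8.836 in DW mice, with a median difference of 1.46 SD units. Their part in the liver values was not tested.

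In WAT, Agpat2 was the only gene of the 9 for which all 5 CAAM mice lay above the DW median. The CAAM mice were at 3.37, 0.42, 0.68, 0.30 and 0.36, and the DW mice ran from -0.96 over 0.06 to 0.97. CAAM mouse 2 stood alone above every DW mouse. The difference was 1.03 SD units, or 0.00254 ± 0.00141 score units (SE; limma adjusted p = 0.9999). Rank products called Agpat2 higher with a false positive share of 0.0445, and this call was lost on leaving out any 1 of the 5 CAAM mice, or DW mouse 1, 2, 4 or 6. Without CAAM mouse 2 rank products called 3 probe sets lower, 1 each of Gpd1, Mogat2 and Dgat2, against 753 of all 45037 probe sets. Mogat2 was called lower, with CAAM mice at 2.14, -0.86, 0.05, -1.47 and -1.22 and DW mice from -0.88 over 0.12 to 0.60. Of the 5 CAAM mice 2 lay below all DW mice and CAAM mouse 2 above all of them, so the mean difference was -0.27. Without CAAM mouse 2 it was -1.63 (limma adjusted p = 0.929). Gpam and Dgat1 had differences of 0.68 and 0.64 SD units, with 3 of 5 CAAM mice above the DW median for each. Gpd1, Lpin1, Lpin2, Mogat1 and Dgat2 lay between -0.10 and 0.34. Without CAAM mouse 2 the difference was -1.13 for Dgat2 and -0.80 for Gpd1. The median over the 9 genes was 0.12 against 0.01 for all probe sets. The 4 WAT arrays of DW mice 1 and 2 and CAAM mice 6 and 7 were also left out together. Of these, that of CAAM mouse 7 was hardly higher in epididymis markers than that of DW mouse 3 (7.72 against 7.61). Without them rank products called 0 of the 19, against 566 of all 45037 probe sets, and the Mogat2 difference was 0.46. The 5 mesothelium markers were all lower with CAAM in WAT by rank products, against 1.95% of all probe sets. Their mean score was 7.906 to 7.918 in CAAM mice against 7.914 to 7.935 in DW mice, with a median difference of -1.87 SD units. Their part in the WAT values was not tested.

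In BAT, Agpat2 was called lower and the dimmer Dgat1 probe set higher. For Agpat2 the CAAM mice were at 1.77, -0.99, -1.22, -1.61 and -0.83, and the DW mice ran from -1.29 over -0.02 to 0.89. CAAM mouse 2 again lay above every DW mouse and the other 4 lay below the DW median. The difference was -0.57 SD units (limma adjusted p = 0.935), and without CAAM mouse 2 it was -2.05 (limma adjusted p = 0.375). CAAM mouse 2 was also the CAAM mouse with high muscle markers in BAT. Without the 4 BAT arrays highest in those markers the Agpat2 difference was -1.67 (limma adjusted p = 0.786), and rank products no longer called it. Centring each array on its median turned the Agpat2 difference to 0.27, and quantile normalization turned it to 0.45. The dimmer Dgat1 probe set differed by 0.34 SD units, with 2 of 5 CAAM mice above the DW median (limma adjusted p = 0.971). Dgat2 had CAAM mice at -0.65, 1.10, 0.42, 1.70 and 1.49 and DW mice from -1.07 over -0.46 to 1.52, with 4 of 5 CAAM mice above the DW median and a difference of 0.81 SD units (limma adjusted p = 0.884). Both Dgat2 probe sets had this direction. Without the 4 BAT arrays highest in muscle markers, the difference of the leading Dgat2 probe set was 2.31 SD units (limma adjusted p = 0.715). Gpd1 had CAAM mice at 0.55, -0.64, -1.29, -0.63 and -1.84, a difference of -0.77 SD units (limma adjusted p = 0.894) that turned to 0.89 on centring the arrays on their medians. Gpam and Lpin2 differed by -0.54 and -0.39, which centring turned to 0.67 and 0.89. Centring moved the median difference over all probe sets in BAT from -5.77e-08 to 0.000373 score units. That is more than the differences of Gpd1, Gpam, Lpin2 and Agpat2 (-5.46e-06, -8.83e-05, -3.98e-06 and -0.000263 score units). The turns in sign on centring thus follow the array medians and say little about these genes. The differences of Lpin1, Mogat1, Mogat2 and Dgat1 were 0.49, 0.61, 0.40 and 0.67. The median over the 9 genes was 0.40 against -0.01 for all probe sets. All 6 muscle markers and 4 of 6 macrophage markers were lower with CAAM in BAT by rank products, against 2.05% of all probe sets. Their median differences were only -0.44 and -0.47 SD units, and 0 of 6 in either list had an unadjusted limma p under 0.05. The mean score of the muscle markers was 6.62 to 10.78 in CAAM mice and 6.87 to 11.34 in DW mice, and that of the macrophage markers was 7.547 to 7.558 and 7.544 to 7.573. The part of the macrophage markers in the BAT values was not tested.

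**Figure D4:**
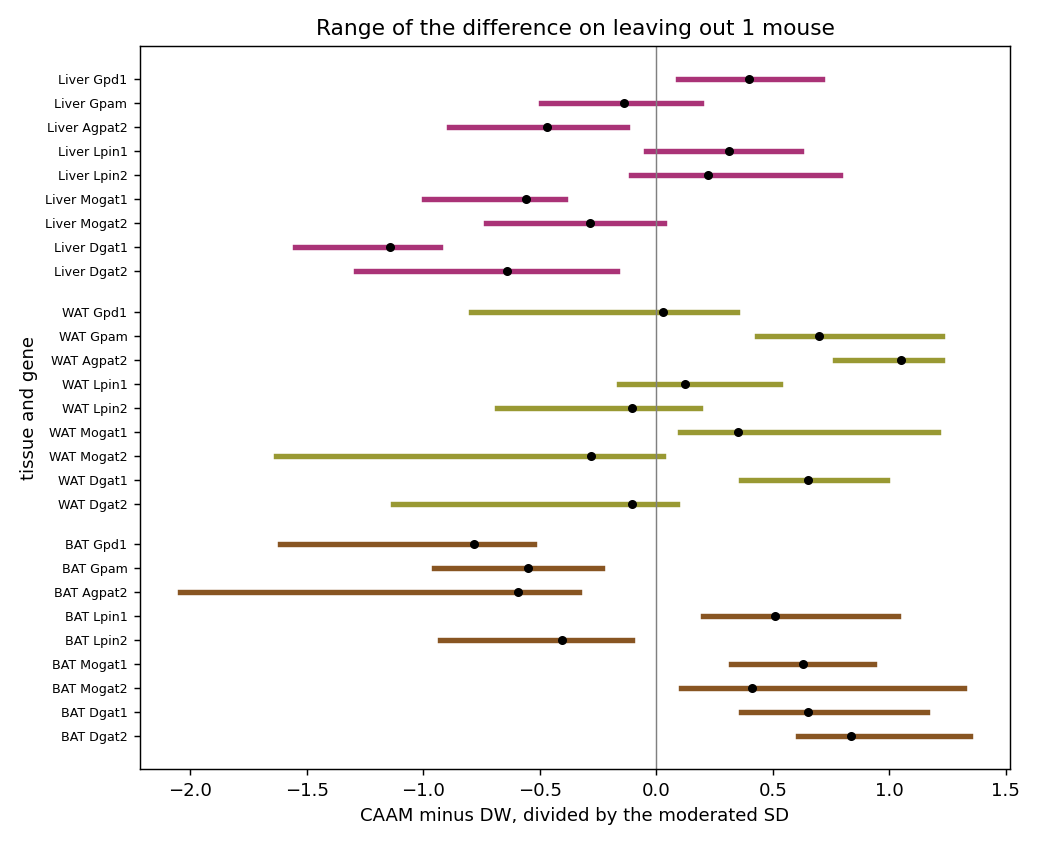
Difference of CAAM from DW divided by the moderated SD (x axis) for the 9 genes in 3 tissues, with a dot for all mice and a bar from the lowest to the highest value on leaving out 1 mouse. The bar crosses 0 in 9 of 27 cases, and the widest single move is that of Agpat2 in BAT to -2.05.

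Whether CAAM acted differently between tissues was tested by limma on the within-mouse differences, after each tissue was divided by its SD. None of the 19 probe sets passed an adjusted p under 0.05 for any of the 3 pairs of tissues, against 0.329% of all probe sets for WAT against liver, 0.273% for BAT against liver and 0.0622% for BAT against WAT. At an unadjusted p under 0.05 there was 1 probe set of the 19 in each pair. Of all 45037 probe sets, 2555 were more positive and 1929 less positive for WAT against liver. The counts were 2596 and 1673 for BAT against liver and 2056 and 1840 for BAT against WAT. Taken over both directions, these shares are no smaller than 1 of 19. Dgat1 was more positive in WAT than in liver by 1.75 ± 0.804 SD units (limma adjusted p = 0.421). In BAT against liver it was more positive by 1.78 ± 0.787 (limma adjusted p = 0.413), and these pairs share the liver arrays. The other Dgat1 probe set gave 0.20 and -0.03 for the same pairs. Agpat2 was less positive in BAT than in WAT, at -1.60 ± 0.674 (limma adjusted p = 0.473).

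The 9 genes did not move as a block from mouse to mouse. Deviations from the group mean were compared over the 12 mice of a tissue for all 36 pairs of genes, as a description, since the arrays of a pair share RNA and hybridisation. The median correlation was -0.12 in liver, 0.09 in WAT and 0.16 in BAT. In WAT, Gpd1, Agpat2, Mogat2 and Dgat2 went together, though not equally in all pairs. Pearson's r was 0.89 for Gpd1 and Dgat2 (Spearman's rho 0.71), 0.87 for Gpd1 and Mogat2 (rho 0.73), 0.87 for Agpat2 and Dgat2 (rho 0.64) and 0.80 for Gpd1 and Agpat2 (rho 0.66). CAAM mouse 2 was the highest of the 12 for all 4 genes, at 2.21, 3.37, 2.14 and 2.198 SD units. Without this mouse r was 0.75, 0.70, 0.69 and 0.55 in the same order of pairs. It was 0.63, 0.60, 0.52 and 0.40 without the 2 mice farthest from the median of the first gene. The remaining pairs of these genes were weaker. Mogat2 and Dgat2 had r = 0.75 (rho 0.48), 0.38 without CAAM mouse 2 and 0.29 without the 2 farthest mice. For Agpat2 and Mogat2 the values were 0.66 (rho 0.38), 0.13 and 0.18. Mogat1 and Dgat1 made a separate pair in WAT, with r = 0.75 (rho 0.81) and 0.81 without CAAM mouse 2. Gpam and Lpin2 ran against each other in WAT, with r = -0.70 (rho -0.48), which was -0.04 without the 2 farthest mice.

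**Figure D5:**
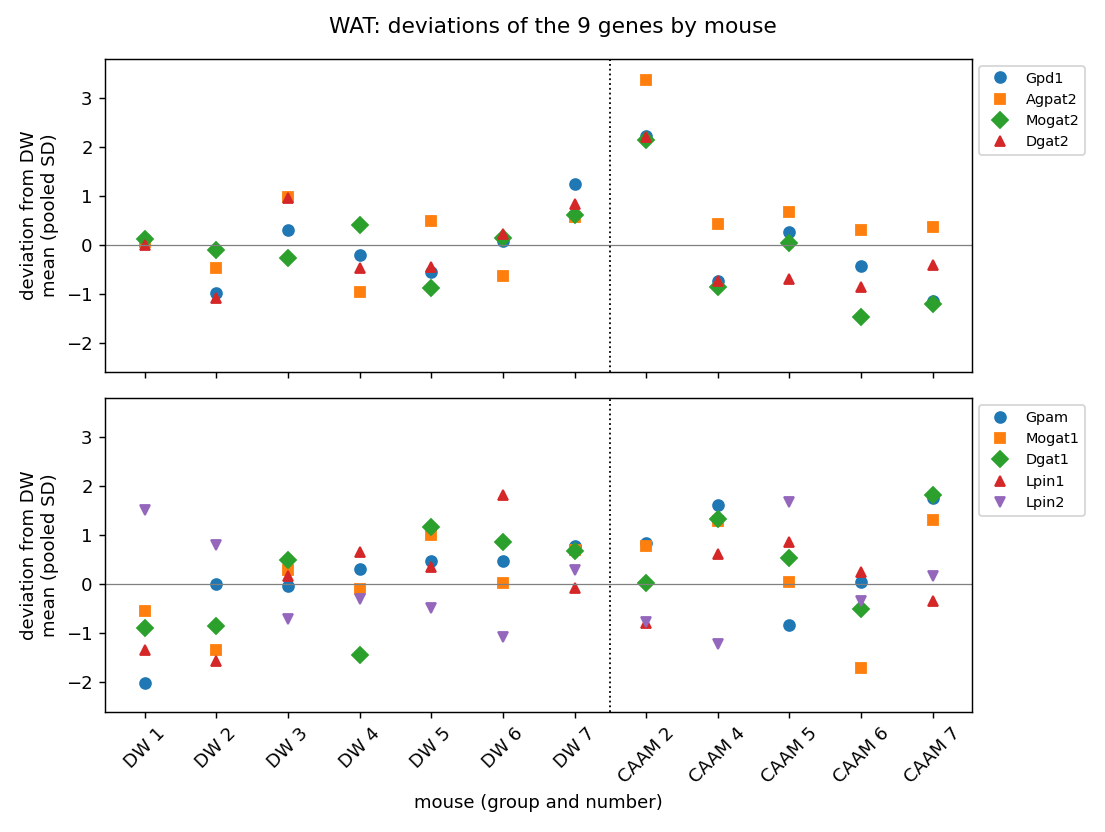
Deviation from the DW mean in SD units (y axis) of the 9 genes in the WAT of each of the 12 mice (x axis, DW left and CAAM right of the dotted line). The upper panel has Gpd1, Agpat2, Mogat2 and Dgat2, all between 2.14 and 3.37 in CAAM mouse 2, and the lower panel the other 5 genes, which lie between -0.78 and 0.83 there.

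In liver, Lpin2 and Dgat2 went together (r = 0.78, rho 0.69, and 0.60 without the 2 farthest mice), and Agpat2 ran against Lpin2 (r = -0.79, rho -0.77, and -0.61). Gpd1 ran against Lpin1 (r = -0.70, rho -0.58, and -0.59). The genes that went together in WAT did not all do so in liver, where r was -0.65 for Agpat2 and Dgat2 (rho -0.64, and -0.35 without the 2 farthest mice), -0.54 for Gpd1 and Dgat2 (rho -0.52, and -0.63) and -0.40 for Agpat2 and Mogat2 (rho -0.31, and -0.63). In BAT, Gpd1 and Agpat2 went together (r = 0.73, rho 0.71, and 0.74), and Gpam ran against Lpin1 (r = -0.66, rho -0.69, and -0.63). Gpd1 and Agpat2 was the only pair with r above 0.6 in all 3 tissues, at 0.62 in liver, 0.80 in WAT and 0.73 in BAT. Of 16 pairs of probe sets of the same gene, 10 had r above 0.6 in liver, 11 in WAT and 4 in BAT. The pair of Lpin1 had r of 0.96 to 0.98 in the 3 tissues. The pair of Dgat1 had 0.94 in WAT but -0.21 in liver, and the 6 pairs of Lpin2 ran from -0.45 to 0.58 in BAT.

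Across the genome, the probe sets whose deviations over the 36 arrays were most like those of each gene, after removal of the group means and division by the SD, were named for each gene. For Gpd1 these were Pkm, a glycolytic kinase (r = 0.84), Dhx32 (0.78) and Hsd17b12, a fatty acid elongation enzyme (0.77). For Agpat2 they were Caprin1 (0.82), Alg3 (0.80) and Tlcd2 (0.79). Lpin1 was most like Map3k5 (0.76), H1f10 (0.75) and Syde2 (0.75), and Lpin2 most like Gpr155 (0.77), 0610005C13Rik (0.72) and Nme5 (0.69). Gpam was most like Zw10 (0.71), Hic1 (0.70) and Pik3cd (0.70), and Mogat2 most like Ppp2ca (0.70), Pdhb (0.68) and 2010003K11Rik (0.68). Tlcd3a was among the 3 nearest of both Mogat1 (0.76, beside Pag1 and Pus10) and Dgat1 (0.73, beside Dipk2a and Acot4). Dgat2 was most like Setd3 (0.75), Ppp1r3e (0.70) and Pdha1 (0.70), a subunit of pyruvate dehydrogenase. The highest of so many correlations are high in any case, so these values are a description.

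Of the neighbouring genes under CAAM, limma called 0 at an adjusted p under 0.05 in any tissue. In liver, rank products called Pck1 higher (1.17 SD units, with all 5 CAAM mice above the DW median, limma adjusted p = 0.750) and Fitm1, a lipid droplet protein, lower (-1.07, limma adjusted p = 0.770). It also called the lipogenic regulators Mlxipl, Srebf1 and Thrsp lower, at -0.63, -0.11 and -0.67, and the droplet coat Plin2 lower, at -0.27. Chka, a choline kinase, was called higher at 0.39. Etnk1, an ethanolamine kinase, was at 1.86 SD units (limma adjusted p = 0.680). The 6 genes of triglyceride storage had 1 value above 0 in liver, 6 in WAT and 2 in BAT. Their medians were -0.73, 0.37 and -0.18 SD units, against -0.09, 0.01 and -0.01 for all probe sets. Among them in WAT, Mttp, which loads lipid onto lipoproteins, had 1.78, and Gpat4 of the paralogues had 1.30 (limma adjusted p = 0.9999 for both). Rank products called Cds1 and Pnpla3 higher, at 0.32 and 0.36, and Fasn lower, at -0.53. In BAT, Gpd2 was at -2.44 (limma adjusted p = 0.612), with 0 of 5 CAAM mice above the DW median, and Aqp7 at -2.26 (limma adjusted p = 0.645). Lpgat1 was at -1.27 (limma adjusted p = 0.775) and Selenoi, an ethanolamine phosphotransferase, at 2.31 (limma adjusted p = 0.645). Rank products called Gpat3 higher, at 0.52, and Aqp7, Lpgat1, Mlxipl, Fitm1 and Pnpla3 lower, the last 3 at -0.39, -0.45 and -0.21.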

How the data were processed

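The authors quantified Affymetrix whole-genome mouse arrays by the distribution free weighted method in R 2.7.2, as the submission notes give it, and deposited the resulting scores, whose centring and separate handling of tissues are not stated. Of 45101 rows, 64 controls were left out. Probe sets with 1 symbol numbered 34945, with several 932 and with none 9160. Arrays of another mixture were not analysed here. Rank products (35 array pairs, 100 permutations, 20 for alternatives, called at a false positive share under 0.05) were run in python 3.11.15 with numpy 2.4.6, and limma 3.58.1 in R 4.3.3 gave differences, SE and Benjamini-Hochberg adjusted p values, two-sided, over all probe sets. Where a gene had several probe sets, the brightest on average led, chosen per tissue for treatment and over all tissues for tissue differences. The same number in DW and CAAM is not the same mouse, so no block was used, while tissues of a mouse were paired. Scripts were tested on simulated data. Under CAAM, genes named beyond the 9 were those called or with limma p under 0.05, and the 3 most like each gene were named too. Neighbours and markers named for their tissue levels were examples from the lists, not chosen by that rule. The 9 genes, the lists and the left-out arrays were chosen with earlier results of these data known. Precision is limited by how many arrays each group has.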

Additional observations from a re-analysis of the deposited data

Results flagged for a closer look

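Of 54 groups of a gene, tissue and treatment, 6 held a mouse that stood apart from its group by Dixon's test, where chance alone flags about 5%. The gap to the nearest mouse was 0.877 of the whole range for Agpat2 in WAT and 0.856 for Dgat2 in WAT, both in CAAM mouse 2 as the highest of 5. The same mouse was the highest for Agpat2 in BAT, with a gap of 0.768. CAAM mouse 5 was the highest for Gpd1 in liver, with a gap of 0.817. DW mouse 1 was the lowest of 7 for Gpam in WAT, with a gap of 0.711, and its WAT array was among those with high epididymis markers. DW mouse 7 was the lowest of 7 for Lpin1 in BAT, with a gap of 0.574, and its BAT array was among those with high muscle markers.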

How the results depend on the processing

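The counts of the 19 probe sets that differed by 1 unit between tissues stayed within 1.5 times under every alternative run, at 8 to 9, 14 and 4. Counts by rank products moved. With quantile normalization they were 3 in liver and 1 in WAT, and without dim probe sets 3 in liver, 0 in WAT and 1 in BAT. On the linear scale they were 6 in WAT and 6 in BAT, and with differences divided by the SD or with summed ranks 0 in all 3 tissues. Without the WAT arrays of DW mice 1 and 2 and CAAM mice 6 and 7 the count was 0 in WAT, and without the 4 highest in muscle markers 1 in BAT. Calls over all 45037 probe sets moved as well, from 1206 in liver, 1186 in WAT and 1426 in BAT. They were 1008, 549 and 500 with quantile normalization, and 1232, 1262 and 1517 on the linear scale. Without dim probe sets they were 649, 627 and 779 of 22519. They were 566 without those WAT arrays and 781 without those BAT arrays. For the 19 probe sets, leaving out 1 mouse gave 3 to 6 in liver (3 without DW mouse 2 or 3). It gave 1 to 3 in WAT (1 without DW mouse 1, 2, 4 or 6 or CAAM mouse 4, 6 or 7). In BAT it gave 1 to 3 (1 without DW mouse 4 or CAAM mouse 4 or 5). Over all probe sets it gave 917 to 1183 in liver, 892 to 1270 in WAT and 1122 to 1593 in BAT. When the 3 tissues were modelled together, limma did call probe sets for CAAM against DW at an adjusted p under 0.05. Of all 45037, these were 161 higher and 238 lower in liver, 152 and 191 in WAT, and 120 and 43 in BAT. Under each other alternative there were at most 4 higher and 1 lower in a tissue. Of the 19, limma called 0 after adjustment for CAAM against DW under all alternatives run. The numbers did not pair the mice (correlations of -0.19 to 0.15 between same-numbered DW and CAAM mice), and with the replicate block limma again called 0 after adjustment, but it turned Lpin1 in liver to -0.35. Among differences called by rank products, leaving out 1 mouse moved Lpin1 in liver from -0.043 (without CAAM mouse 6) to 0.62, Lpin2 in liver from -0.11 (without CAAM mouse 6; -0.028 without CAAM mouse 7) to 0.79, and Mogat2 in WAT from -1.63 (without CAAM mouse 2) to 0.028 (without CAAM mouse 6). Mogat2 also changed sign without those 4 WAT arrays (0.46), and Agpat2 in BAT with quantile normalization (0.45) or median centring (0.27). Of 27 differences of a gene in a tissue, 15 changed sign under at least 1 alternative. Among tissue differences, other probe sets turned Gpd1 (-0.40) and Gpam (-0.31) for WAT minus liver, Gpam for BAT minus liver (-0.17) and Dgat1 for BAT minus WAT (-0.49). Centring turned Gpam for WAT minus liver (-0.056), and quantile normalization turned Lpin2 for BAT minus WAT (0.000142). With DW mice 4, 5 and 6 alone, chosen after seeing the data, the tissue counts did not move. Where not stated, the cause was not tested.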
